A study of Drosophila melanogaster with 10 samples.

Results

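SL2 cells treated with double-stranded RNA (dsRNA) against eGFP served as the mock-treated controls of a knockdown study on Tip60, a fly histone acetyltransferase. Their 4 Affymetrix arrays, of 10 in the series, were selected by that treatment label and by no measured value, and are described here on their own. The cells had received 10 µg of dsRNA against eGFP, a jellyfish reporter with no counterpart in the fly genome, and were harvested after 5 days at 26 °C in InsectExpress medium. The labels number the arrays eGFP 2.1, 2.2, 3.1 and 3.2 without saying what either number stands for, or whether the arrays came from separate cultures, so any p-value covers the variation among these 4 arrays alone, part of which may be technical. The other 6 arrays, treated with dsRNA against Tip60, were not analysed here. All 4 arrays share the line, the medium, the dsRNA treatment and the harvest time, and no array of untreated cells was used, so the values describe cells that had been through a mock knockdown.

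SL2 cells, also called S2 cells, are Schneider's line 2, established from late fly embryos and known for taking up dsRNA from the medium. They are widely regarded as a macrophage-like line that descends from embryonic blood cells. Fly blood cells, or hemocytes, comprise plasmatocytes, which engulf bacteria and dying cells and secrete the collagen and laminin of basement membranes; crystal cells, which store the prophenoloxidases that start melanization; and lamellocytes, which encapsulate large parasites. The GATA factor Serpent (srp) is needed for hemocytes to form. The 3 genes set as a check of the blood cell origin were Hml, srp and NimC1. Hml encodes the clotting protein Hemolectin of plasmatocytes, and NimC1 a phagocytosis receptor of the Nimrod family.

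The deposited signals were linear probe set intensities, scaled so that the 2% trimmed mean of each array was 1000. A signal depends on how well the probes of a probe set bind as well as on the transcript, so an order of genes below is an order of signals and not of transcript amounts. Each array carried 119 control probe sets with no fly target and no spike-in, and the 95th percentile of their signals was taken as the background level of that array. It was 49.8 on eGFP 2.1, 65.6 on 2.2, 60.4 on 3.1 and 93.3 on 3.2. A probe set was called above background where it exceeded this level on all 4 arrays. Of 18769 fly probe sets, 8148 (43.4%) were above background, 7793 (41.5%) were at or under it on all 4 arrays, and 2828 (15.1%) were above it on 1 to 3 arrays. With each of 11982 genes represented by its brightest probe set with 1 gene symbol, 6481 genes (54.1%) were above background, 3872 (32.3%) were at or under it, and 1629 (13.6%) were split between the arrays. The median gene had a signal of 197. Of the genes named below, 11 cleared this level but not the 99th percentile of the same controls: ItgaPS4, NimC4, Snap25, sls, swa, Yp3, trp, Or67b, gt, ci and eEF1alpha2.

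The arrays resembled each other in most overall measures. Between 8599 and 9744 fly probe sets exceeded the background level of a single array, with the fewest on eGFP 3.2, whose control probe sets had a median of 19.9 against 9.39 to 10.5 on the other 3. Hybridization spike-ins, which are added in equal amount to every array, had a geometric mean of 6765 on eGFP 2.1 and of 9954 to 11467 on the others, and the highest fly signal was 63928 on eGFP 2.1 and 93383 to 103710 on the others. Array eGFP 2.1 was thus lowest at the bright end of the scale, and eGFP 3.2 highest at the dim end. The ratio of 3′ to 5′ signal, a measure of RNA integrity and labelling, ran from 2.48 to 3.31 for actin and from 1.44 to 1.76 for Gapdh.

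The brightest signals came from the translation machinery and from a small number of secreted, cytoskeletal and lysosomal products. Of the 25 genes with the highest mean log2 signal, 19 encoded cytoplasmic ribosomal proteins, and 30 of the 41 measured ribosomal protein genes were among the brightest 100. The ranking leaves out probe sets without a single gene symbol, and 44.1% of the listed ribosomal protein genes were measured. RpL41, a very small ribosomal protein, ranked first, with 62602 on eGFP 2.1, 97632 on 2.2, 93383 on 3.1 and 103710 on 3.2. The acidic stalk proteins RpLP1 (84220 ± 15910, SD, n = 4) and RpLP2 (79255 ± 14382) and the protein RpL32 (75149 ± 14348), a common normalizer in RT-PCR, were within the first 6.

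The other 6 of the brightest 25 were CG5953, Nplp2, tsr, Hsc70-4, eEF5 and CtsL1. CG5953, a gene known only by its annotation number, had 63928, 95833, 91306 and 96341 on eGFP 2.1, 2.2, 3.1 and 3.2. Nplp2, which was first described as a neuropeptide precursor and is also a plasmatocyte marker, had 62878, 94318, 85362 and 97060 in the same order. In both genes eGFP 2.1 lay below the other 3 arrays. The other CG5953 probe set averaged 3319 ± 343, also above background, so the place of this gene depends on the probe set. The actin-severing cofilin twinstar (tsr) averaged 65545 ± 9612, the constitutive chaperone Hsc70-4 averaged 61125 ± 8918, and the translation factor eEF5 averaged 58198 ± 7342 (SD, n = 4 each). CtsL1, the lysosomal protease cathepsin L, averaged 57933 ± 9900. Just outside the first 25 were SPARC, a collagen-binding matrix protein (56363 ± 5845), the RNA helicase eIF4A (55831 ± 6997) and the membrane-cytoskeleton linker Moesin (Moe, 53477 ± 7990).

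**Figure D1:**
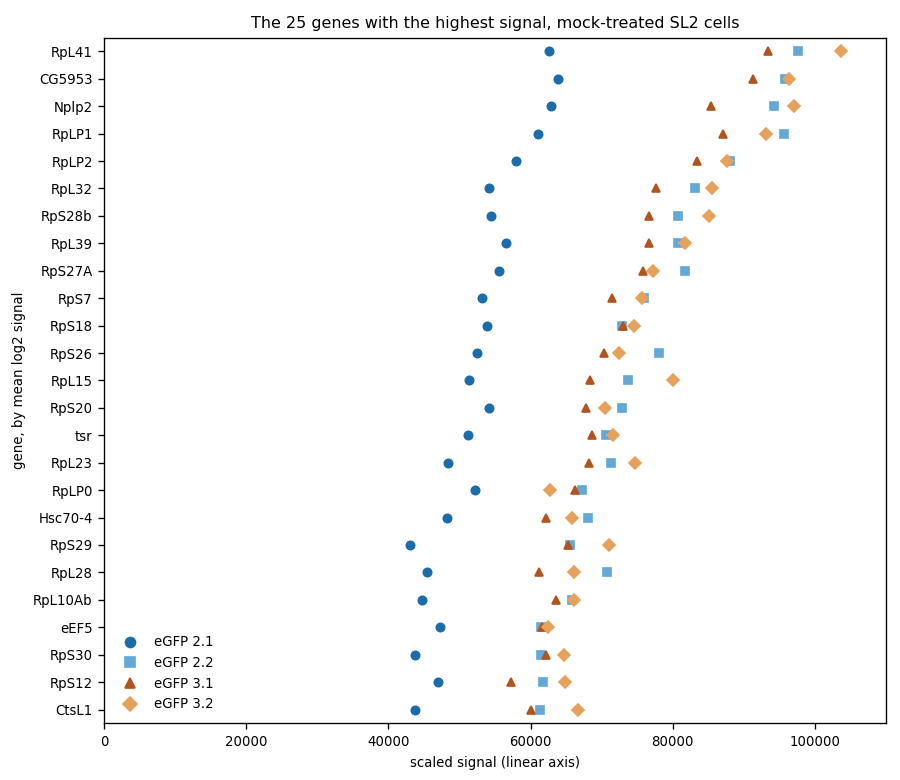
The 25 genes with the highest mean log2 signal, from top to bottom, with the scaled signal of each of the 4 mock-treated arrays on a linear axis. Array eGFP 2.1 is the lowest point for 25 of 25 genes.

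Signal was concentrated in few genes. The brightest 25 genes carried 7.91% of the summed gene signal, the brightest 100 carried 20.0% and the brightest 500 carried 44.6%. The 41 measured ribosomal protein genes, 44.1% of those listed, carried 8.57%. The summed signal leaves out probe sets without a single gene symbol. The spread among the arrays at this end came mainly from 1 array: eGFP 2.1 had the lowest value for 25 of the 25 brightest genes, with a median of 0.52 below the mean of the other 3 arrays on the log2 scale. It was lowest for 89 of the brightest 100 genes (median log2 difference −0.22) and for 232 of the brightest 500 (−0.06), and over all 6481 genes above background it was lowest for 1645 (median log2 difference 0.00). The hybridization spike-ins were lowest on the same array, and their part in this difference was not tested.

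All 3 genes set as a check of the blood cell origin were above background on all 4 arrays, as were 54.1% of all genes. Hml had 16594 on eGFP 2.1, 19952 on 2.2, 18084 on 3.1 and 16342 on 3.2, a mean of 17743 ± 1661 (SD, n = 4), and ranked 166th of 11982 genes. The factor srp had 12999, 12322, 12721 and 13243 in the same order (12821 ± 396, rank 283). NimC1 was dimmer, with 2433, 2645, 2178 and 2409 (2416 ± 191, rank 2277). The highest array exceeded the lowest by 1.22-fold for Hml, 1.07-fold for srp and 1.21-fold for NimC1, and every value lay far over the background levels.

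Every one of the 11 plasmatocyte markers was above background on all 4 arrays, with a median signal of 15951. After Nplp2 the brightest were the collagen IV chains Col4a1 (32938 ± 4155) and vkg (32083 ± 2435), followed by the surface protein Hemese (He, 21124 ± 2152). The matrix peroxidase Peroxidasin (Pxn, 16023 ± 1754), the engulfment receptor Draper (drpr, 13036 ± 454) and the phagocytosis receptor eater (10019 ± 529) came next. The scavenger receptors Sr-CI (5869 ± 386) and croquemort (crq, 3387 ± 427) came after these, and NimC1 was the dimmest of the list. For Pxn the other probe set averaged 323 ± 15.4, also above background, so its place in this order depends on the probe set. Over all 50 measured genes of the blood lists 40 were above background, or 80.0%, beside 54.1% of all genes. The lists were chosen with earlier results of these data known, so these counts are a description and not a test.

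Basement membrane genes overlapped with this group and were also bright. Of 11 members 10 (90.9%) were above background, beside 54.1% of all genes. They included, with the collagens and SPARC, the laminin chains LanA (28706 ± 3331), LanB2 (18185 ± 1970) and LanB1 (12275 ± 1059). The proteoglycan-like Papilin (Ppn, 5845 ± 253), the adhesion protein Tiggrin (Tig, 4129 ± 562) and the perlecan gene trol (2686 ± 227) were also above background. The 8 trol probe sets spanned signals from 1.94 to 2692, and 3 of them were at background, so the value of this long gene depends on the probe set. Nidogen (Ndg) was the 1 member split between the arrays, with 71.0 on eGFP 2.1, 47.4 on 2.2, 16.8 on 3.1 and 73.3 on 3.2. It exceeded background on 1 array only.

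Phagocytosis receptors were not uniformly present, with 11 of 14 (78.6%) above background, beside 54.1% of all genes. The Nimrod family lies mostly in 1 gene cluster. Of its genes on this list, NimB5 had 3440 ± 320, NimB4 938 ± 107, NimB2 730 ± 41.9, NimB1 260 ± 43.5 and NimC4 191 ± 31.8, while NimA (18.2 ± 14) was at background. NimB3, which was not on the list, averaged 946 and was also above background. Among the class C scavenger receptors the order was Sr-CI, as above, then Sr-CIV (194 ± 43.0), with Sr-CII (15.8 ± 16.2) and Sr-CIII (18.7 ± 14.5) at background. NimC4 is known as Simu, a receptor for apoptotic cells.

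Of 10 hemocyte transcription factors 6 were above background, a share close to the 54.1% of all genes, 1 was split between the arrays and 3 were at background. Besides srp, the zinc finger protein zfh1 had 9177 ± 644, the JAK-STAT effector Stat92E had 9067 ± 461, and ush, the Friend-of-GATA partner of srp, had 8652, 9046, 8743 and 7608 on eGFP 2.1, 2.2, 3.1 and 3.2 (8512 ± 626). The forkhead factor jumu had 3004 ± 311. The Runx factor lozenge (lz), which specifies crystal cells, was low but clear of background on every array, with 606, 738, 593 and 811. The fate regulators glial cells missing (gcm) and its paralog gcm2, which act in embryonic plasmatocytes, were at background, gcm with 1.65, 26.6, 5.47 and 64.0 and gcm2 at 5.62 ± 1.41. The EBF factor knot (kn), required for lamellocyte fate, was also at background (29.2, 21.3, 43.3 and 43.2). The order of the arrays is not read at these levels.

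The effector genes of crystal cells had high signals. The prophenoloxidase PPO2 had 26258 on eGFP 2.1, 28430 on 2.2, 28272 on 3.1 and 24559 on 3.2, and PPO1 had 22564, 23670, 23680 and 20649. They ranked 82nd and 108th of 11982 genes, and the highest array exceeded the lowest by 1.16-fold for PPO2 and 1.15-fold for PPO1. The zinc finger gene pebbled (peb), the fourth member of the list, exceeded background on 3 arrays (66 ± 28.3). In bulk RNA, fewer cells of a type and less RNA per cell cannot be told apart, so these signals do not say how many cells carried the transcripts.

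All 6 lamellocyte markers were above background, beside 54.1% of all genes, at very unequal signals. The filamin gene cher (8072 ± 1335), the kinase misshapen (msn, 6306 ± 672), the lamellocyte prophenoloxidase PPO3 (1999 ± 34.0) and the receptor mthl4 (1254 ± 70.2) were in the middle or upper range. The 2 most specific surface markers were near the floor: atilla, the L1 antigen, had 226, 240, 185 and 174 on eGFP 2.1, 2.2, 3.1 and 3.2, and the integrin subunit ItgaPS4 had 156, 150, 158 and 217. Of 5 markers of blood progenitors in the lymph gland, Tep4, a thioester protein, was bright (9701 ± 313) and the JAK-STAT receptor dome was low (549 ± 40.7). The E-cadherin gene shg was above background on 2 arrays (83.8 ± 45.0), and the Hox gene Antp, which marks the niche of that organ, was at background (22.8 ± 13.4).

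**Figure D2:**
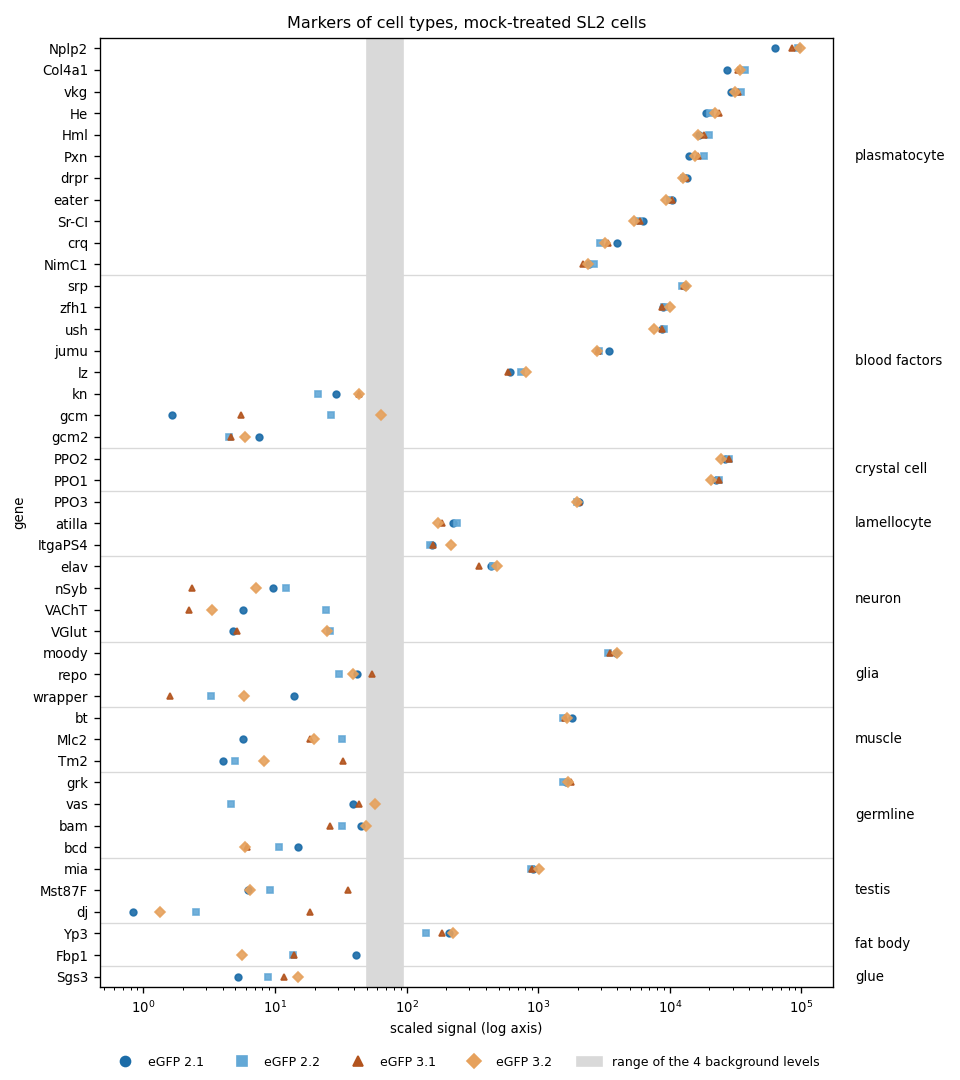
Scaled signal of marker genes of blood and other cell types on each of the 4 mock-treated arrays, on a log axis, with the range of the 4 background levels (49.8 to 93.3) in grey. Plasmatocyte markers lie to the right of the band on every array, whereas most markers shown for other cell types lie to its left or within it. The markers of other cell types are a selection, so the figure does not give the share detected. Left out are members above background (loco, nrv2, Gli, cac, brp, Snap25, stau, exu and swa among them) and members at background such as ChAT and orb. In the full glia list 4 of 6 genes were above background.

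Genes that mark other cell types were mostly silent at this sensitivity. Of 341 genes on 15 lists of other tissues, 39 (11.4%) were above background, 87 were split between the arrays and 215 were at background, with a median signal of 20.4. Of all genes 54.1% were above background, 13.6% were split and 32.3% were at background, with a median signal of 197. At the 99th percentile of the controls the 39 became 24. None of 10 chorion and vitelline membrane genes, 10 salivary glue genes or 17 midgut digestive enzymes was above background on all 4 arrays. The accessory gland list had 1 of 11 above (Acp95EF, 282 ± 34.7), the testis list had 1 of 14 above (mia, 933 ± 60.7) and the cuticle proteins had 4 of 66 above (8 without eGFP 3.2, the array with the highest background level). The photoreceptor and fat body lists, for which 6 of 15 and 8 of 11 listed genes were measured, had 1 (the channel trp, 128 ± 23.8) and 2 (the lipoprotein apolpp, 293 ± 20.4, and the yolk protein Yp3, 190 ± 37.2) above. The glue protein gene Sgs3 (10.1 ± 4.10), the sperm protein genes dj (5.80 ± 8.50) and Mst87F (14.4 ± 14.3), the eggshell gene Vm32E (9.17 ± 2.55) and the storage-protein receptor Fbp1 of fat body (18.6 ± 15.5) illustrate the silent members. The chorion gene Cp15 (69.9 ± 16.5), the larval serum protein Lsp2 (88.6 ± 8.08) and the protease Jon74E (115 ± 39.3) lay at the border, above background on 2, 3 and 3 arrays.

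Of 14 neuron markers 4 (28.6%) were above background, beside 54.1% of all genes, 3 were split between the arrays and 7 were at background. The synaptic genes nSyb (7.81 ± 4.17), VGlut (15.3 ± 11.9), VAChT (8.86 ± 10.3) and ChAT (8.77 ± 4.12), which serve vesicle release and the loading or synthesis of glutamate and acetylcholine, were at background. The RNA-binding protein gene elav, used as a pan-neuronal marker, had 436 on eGFP 2.1, 456 on 2.2, 354 on 3.1 and 487 on 3.2, all above background. The calcium channel cac (678 ± 51.7), the active zone protein brp (502 ± 28.3) and the SNARE Snap25 (129 ± 21.3) were the other 3 above background. For cac and brp another probe set of the same gene was at background on all 4 arrays, at 11.3 ± 5.71 for cac and at 55.9 ± 6.76 and 6.19 ± 2.86 for brp, so these 2 calls rest on 1 probe set each.

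Glia markers came out above background in 4 of 6 cases (66.7%), a share near the 54.1% of all genes for so short a list. These were the G protein regulator loco (3706 ± 301), the receptor moody (3699 ± 287), the sodium pump subunit nrv2 (1893 ± 291) and the junction protein Gli (1162 ± 122). The glial identity factor repo was not among them, with 42.3, 30.8, 54.1 and 39.0 on eGFP 2.1, 2.2, 3.1 and 3.2, and neither was wrapper (6.17 ± 5.49). The defining factor of the lineage was thus at background on every array, while genes that serve junctions and signalling were present.

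Of 10 measured muscle genes (of 13 listed), the giant kinase projectin (bt, 1648 ± 112) and sls (titin-like, 113 ± 21.9) were above background, while the myosin light chain Mlc2 (19.1 ± 11) and the tropomyosin Tm2 (12.5 ± 13.7) were at background; for sls, 1 of 3 probe sets carried the call. Of 10 germline and oocyte genes, 4 (40%) were above, beside 54.1% of all genes. These were grk, a TGF-alpha-like ligand of oocyte polarity, with 1639, 1537, 1784 and 1698, and the RNA-localization genes stau (924 ± 262), exu (794 ± 91.2) and swa (163 ± 40.8). The helicase vas, which defines the germline, was at background with 39.1, 4.62, 43.3 and 57.5, as were bam (38.1 ± 10.6), bcd (9.36 ± 4.27) and orb (31.7 ± 18.5). The pole plasm gene osk exceeded the level on 2 arrays (64.2 ± 12).

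The large chemosensory families were largely dark with single exceptions. Of 56 odorant receptors 3 (5.36%) were above background, beside 54.1% of all genes. These were Or1a (568 ± 30.4), Or43b (256 ± 34.1) and Or67b (82.1 ± 11.6). Of 56 gustatory receptors 6 were above, led by Gr61a, whose 1128 on eGFP 2.1, 1322 on 2.2, 1254 on 3.1 and 1167 on 3.2 ranked it 3824th of 11982 genes, followed by Gr94a (336 ± 16.7) and Gr93b (231 ± 26.8). Of 47 odorant binding proteins 7 were above, led by Obp99c (1755 ± 179), Obp18a (575 ± 79.9) and Obp44a (461 ± 68.4). Among the cuticle proteins Cpr49Ac was the brightest (467 ± 84.3). Median signals of these 4 families lay between 18.2 and 25.5, under the background level of every array.

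**Figure D3:**
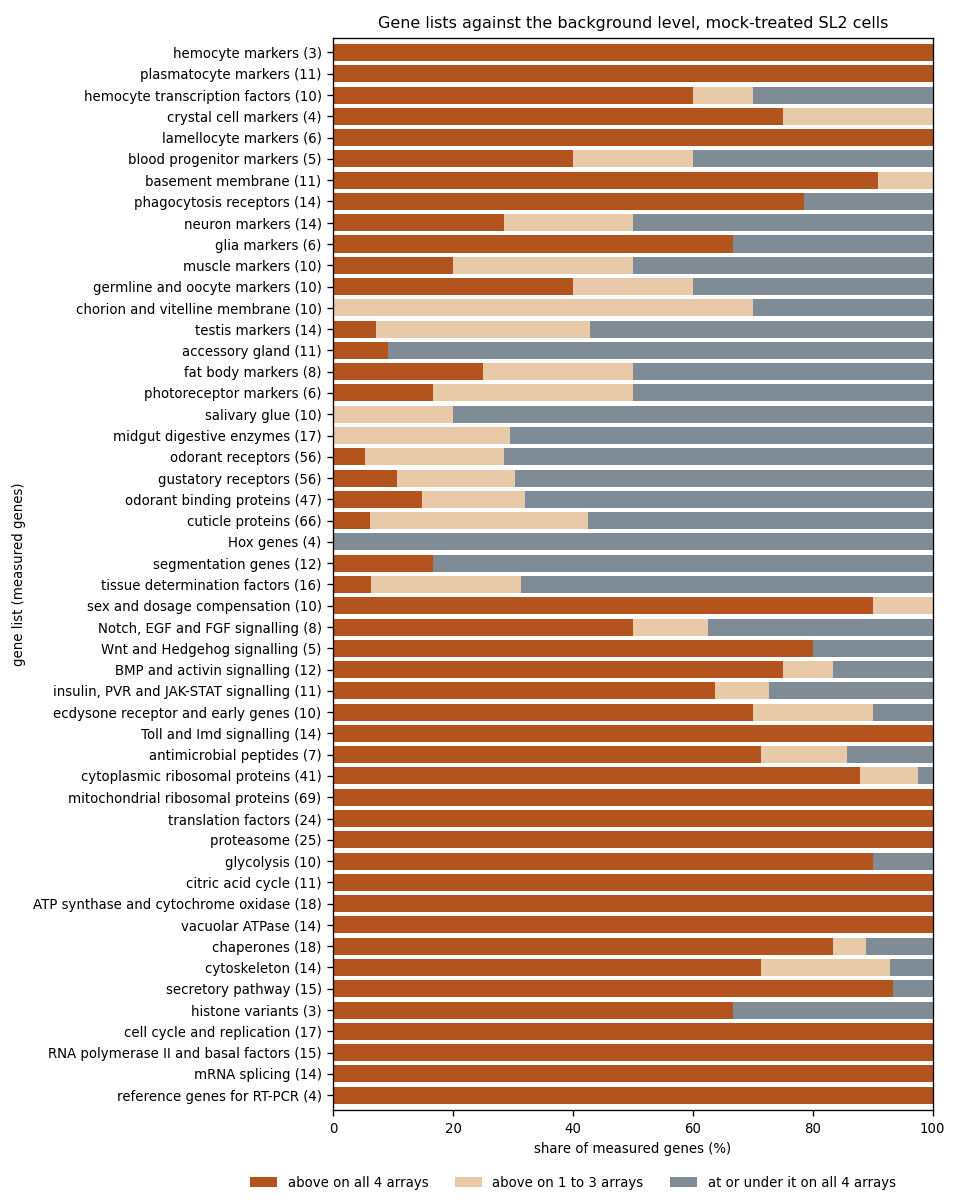
Share of the measured genes of each list, in percent of the number in brackets, that were above the background level on all 4 arrays, on 1 to 3 arrays, or on none. Housekeeping lists at the bottom and plasmatocyte markers at the top are nearly filled, whereas most tissue and patterning lists in between hold few genes above background; the glia list, with 4 of 6 above, is an exception.

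Genes that pattern the embryo were silent with few exceptions. Of 32 measured patterning genes 3 (9.38%) were above background, beside 54.1% of all genes, and 25 were at background, as were 32.3% of all genes. All 4 measured Hox genes of 8 were at background: Antp, Dfd (50.3 ± 6.16), pb (36.0 ± 22.1) and Scr (7.88 ± 9.47). Of 12 segmentation genes 10 were at background, among them ftz (4.55 ± 1.57), Kr (15.2 ± 10.4), eve (28.5 ± 13.3), kni (4.61 ± 2.31) and en (17.9 ± 13.9). The exceptions were the gap gene gt, barely clear of background (103, 110, 69.7 and 123), and hry. The pair-rule repressor hairy (hry), which is also a basic helix-loop-helix factor of later tissues, had 21864 on eGFP 2.1, 22841 on 2.2, 22588 on 3.1 and 24126 on 3.2 and ranked 105th of 11982 genes, the highest array 1.10-fold over the lowest. Of 16 tissue determination factors elav alone was above background, and the mesoderm factor twi (46.1 ± 15.7), the eye factor ey (60.2 ± 10.6) and the hindgut factor byn (67.4 ± 24.6) were each split between the arrays.

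The genes of sex determination and dosage compensation were nearly all detected, 9 of 10 (90%), beside 54.1% of all genes. Flies double the output of the single male X chromosome through a complex of the MSL proteins, and SL2 is known as a male line. The limiting male subunit msl-2 had 1107 on eGFP 2.1, 1314 on 2.2, 1496 on 3.1 and 1683 on 3.2. Its partners were the helicase mle (1907 ± 297), msl-3 (914 ± 266), msl-1 (582 ± 46.1) and the acetyltransferase mof (568 ± 53.3). In the sex determination cascade the splicing regulators tra2 (2526 ± 68.4), Sxl (2212 ± 235) and tra (821 ± 50.4) were above background. Sxl and tra are transcribed in both sexes and differ by splicing, which these values do not separate. For Sxl, 1 of 3 probe sets was at background (12.7 ± 11). Downstream, fru had 491 ± 32.2, and dsx was split (50.2, 59.7, 81.5 and 30.9).

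Of 67 measured signalling and immunity genes 50 (74.6%) were above background, beside 54.1% of all genes. In the platelet-derived and vascular growth factor pathway, the receptor Pvr had 11763 on eGFP 2.1, 15076 on 2.2, 13120 on 3.1 and 13969 on 3.2, and its ligand Pvf2 had 7454, 6245, 6166 and 7257. The other 2 ligands were at background, Pvf1 at 33.2 ± 3.17 and Pvf3 at 14.7 ± 13.5. The insulin receptor InR had 4062 ± 307. Of the insulin, PVR and JAK-STAT list 11 of 15 genes were measured and 7 (63.6%) were above background, beside 54.1% of all genes. The JAK-STAT ligand upd1 was at background (7.87 ± 2.53), and upd2 exceeded it on 1 array (55.6 ± 40.3), beside the receptor dome and the effector Stat92E given above.

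In the BMP and activin list 9 of 12 genes (75%) were above background, beside 54.1% of all genes. The ligand gbb had 5208 ± 296 and dpp 344 ± 85.1, while scw was at background (24.1 ± 21.1). The receptors sax (5361 ± 262), put (4656 ± 405) and tkv (1926 ± 110) and the transducer Mad (3185 ± 139) were present, whereas wit, the receptor of motor neurons, was at background (24.1 ± 15.4). The co-Smad Medea (Med) was split, with 8.12 on eGFP 2.1, 99.5 on 2.2, 40.5 on 3.1 and 109.6 on 3.2. Of the other developmental pathways only part was measured, 8 of 15 listed genes for Notch, EGF and FGF signalling and 5 of 15 for Wnt and Hedgehog signalling. The EGF ligand spitz (spi) had 15714 ± 508 and its receptor Egfr 220 ± 47.9, the FGF ligand bnl 1297 ± 82.0 and its receptor btl 7.84 ± 4.37, which was at background. Other bnl probe sets averaged 147 ± 38.4 and 71.8 ± 21.5, the latter above background on 2 arrays, so the bnl value depends on the probe set. The second FGF receptor, htl, exceeded background on 2 arrays (92.0 ± 40.5). The receptor kinases sev (12.2 ± 6.85) and tor (6.40 ± 4.89) were also at background. For Hedgehog the receiving components smo (1925 ± 150), cos (2148 ± 201), ptc (183 ± 41.3) and ci (178 ± 34.4) were above background and the ligand hh was not (21.7 ± 15).

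Ecdysone, the steroid that times fly moulting, acts through a receptor whose 2 subunits were both detected, EcR at 356 ± 81.8 and usp at 1785 ± 213. Of the 10 measured genes of this list 7 (70%) were above background, beside 54.1% of all genes. The 7 included the early gene br (1694 ± 78.1) and the nuclear receptors ftz-f1 (4389 ± 605) and Hr39 (2297 ± 150). Other br probe sets averaged from 166 ± 33.7 to 318 ± 36.7, all above background, so the br value depends on the probe set. Hr3, a delayed-early gene that the hormone induces, was at background (2.29 ± 1.08), and Hr38 was split between the arrays (54.2 ± 25.3).

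Immune signalling genes were detected throughout. All 14 measured genes of the Toll and Imd pathways, which answer fungal and bacterial infection, were above background, beside 54.1% of all genes. The Toll ligand spz had 16152 ± 740, the inhibitor cact 6164 ± 381, the Imd transcription factor Rel 6118 ± 425, the receptor Tl 4382 ± 458 and the adaptor imd 633 ± 132. The other probe set was dimmer for cact (564 ± 54.5) and for Tl (264 ± 84.2), so these values depend on the probe set. The 2 dimmest were 18w, a Toll relative (252 ± 25.8), and the factor Dif (108, 173, 184 and 189). Of 15 antimicrobial peptide genes 7 were measured and 5 (71.4%) were above background, beside 54.1% of all genes. These were Drs (1438 ± 131), CecB (891 ± 43.1), Mtk (812 ± 101), DptB (730 ± 119) and AttD (644 ± 90.6). Def was at background (30.7 ± 24.1) and Drsl5 exceeded it on 1 array. The 5 detected peptide genes were above background in cells to which the labels record no added microbe.

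Of the 307 measured genes on the housekeeping lists 292 (95.1%) were above background, beside 54.1% of all genes, with a median signal of 5892 against 197 for all genes. The lists with the lowest shares were the cytoskeleton (10 of 14), chaperones (15 of 18) and histone variants (2 of 3). Cytoplasmic ribosomal proteins (36 of 41), glycolysis (9 of 10) and the secretory pathway (14 of 15) were also under 95.1%. All members were above background among 69 mitochondrial ribosomal proteins, 24 translation factors, 25 proteasome subunits, 11 enzymes of the citric acid cycle, 18 subunits of ATP synthase and cytochrome oxidase, 14 of the vacuolar ATPase, 17 cell cycle and replication genes, 15 of RNA polymerase II and its basal factors, and 14 splicing genes. Not every listed gene had a probe set with 1 gene symbol: 73.3% of the citric acid cycle list was measured, 68.0% of the cell cycle list, 75.0% of the RNA polymerase II list and 77.8% of the splicing list.

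Within these lists the signals spanned a wide range. Among the mitochondrial ribosomal proteins mRpL28 was the brightest (7827 ± 526) and mRpL45 the dimmest (718 ± 103), and among the proteasome subunits Prosbeta4 (23740 ± 1898) and Rpn7 (5073 ± 631) marked the ends. In energy metabolism the ATP synthase subunit ATPsyngamma had 38227 ± 2161, the proton pump subunit Vha16-1 26449 ± 928, the glycolytic enzyme enolase (Eno) 21688 ± 1365 and the citric acid cycle enzyme Idh3a 9357 ± 551. The dimmest members of their lists were still clear of background, with ATPsyndelta at 6816 ± 314, Vha44 at 2591 ± 271 and Idh3b at 1240 ± 260. RNA polymerase II and its basal factors ran from the subunit Polr2K (10903 ± 1433) to the TBP-related factor Trf2 (554 ± 22.6), and the splicing genes from the SR protein B52 (21623 ± 1697) to the U2 component Sf3b1 (1795 ± 167). Other probe sets of B52 averaged 9367 ± 924, 433 ± 81.1, 302 ± 40.3 and 205 ± 50.2, so its place depends on the probe set. The chromatin variant His2Av had 16009 ± 871 and the centromeric histone cid 709 ± 56.0. Proliferation genes were clear of background, with PCNA, the replication clamp, at 8625 ± 776 and the mitotic cyclin CycB at 6014 ± 618. The germline phosphatase twe was the dimmest of the cell cycle list (222 ± 19.2). Among reference genes for RT-PCR, 14-3-3epsilon (37811 ± 2040), Gapdh1 (11720 ± 484) and Tbp (1022 ± 122), like RpL32 above, were detected on every array, with 4 of 10 listed genes measured.

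The 7 housekeeping genes at background were Hex-C, Hsc70-1, Hsc70-2, Act87E, BigH1, RpS28-like and Pdi. The hexokinase Hex-A had 1968 on eGFP 2.1, 1912 on 2.2, 1748 on 3.1 and 2003 on 3.2, whereas Hex-C, the isozyme of fat body, had 6.19, 3.72, 3.37 and 2.63. The constitutive heat shock cognates Hsc70-1 (32.4 ± 20.1) and Hsc70-2 (16.8 ± 9.64) were at background, beside the high signal of Hsc70-4, and the testis chaperonin Hsp60B exceeded background on 3 arrays (64.4 ± 38.1). The beta-tubulin betaTub56D, the general isotype, had 36772 ± 2880, and the testis isotype betaTub85D exceeded background on 1 array (51.6 ± 19.2). The muscle actin Act87E (19.1 ± 14.9) was at background, as was the germline linker histone BigH1 (7.91 ± 3.63).

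Of 41 measured cytoplasmic ribosomal protein genes (44.1% of those listed) 36 were above background, 4 were split between the arrays and 1 was at background. That 1 was RpS28-like (29.2 ± 25.8). RpL10Aa exceeded it on 1 array, with 12.4 on eGFP 2.1, 3.69 on 2.2, 76.3 on 3.1 and 10.6 on 3.2, while its paralog RpL10Ab was among the brightest 25 genes. RpS10a (65.8 ± 4.03) and RpL22-like (79.8 ± 19.2) exceeded the background level on 3 arrays each. The elongation factor eEF1alpha2 was low but above background (134 ± 26.7). The probe sets were not screened for binding to a paralog. The disulfide isomerase gene Pdi had 16.6, 32.2, 27.1 and 36.2, all at background, although its relative ERp60 had 28305 ± 1700. Pdi is a general enzyme of the endoplasmic reticulum, and its single probe set was the only measure of it.

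The spread between the 4 arrays depended on the signal. Over the 8148 probe sets above background the median SD of log2 signal was 0.12 and the median coefficient of variation was 8.30%. The coefficient was under 10% for 4978 of them (61.1%), the highest array stood within 1.5-fold of the lowest for 7122 (87.4%), and it was more than 2-fold higher for 188 (2.31%). By class of mean signal, the median SD of log2 signal was 1.05 under 100 (10693 probe sets), 0.19 from 100 to 1000 (3050), 0.097 from 1000 to 10000 (4454) and 0.093 over 10000 (572). A gene near the background level is therefore described here only as above it or not. Across all fly probe sets the log2 signals of 2 arrays correlated with a Pearson coefficient of 0.932 to 0.941, and across those above background with 0.990 to 0.993. These are correlations across probe sets within the same line and scaling, and probe sets are not independent replicates.

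**Figure D4:**
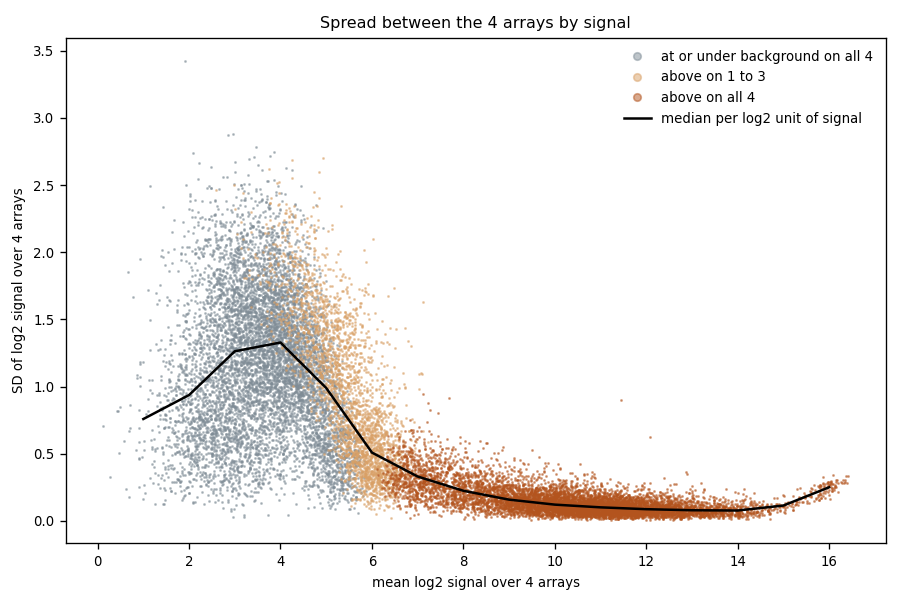
SD of log2 signal over the 4 mock-treated arrays against mean log2 signal, 1 point per fly probe set, coloured by its call against the background level. The line is the median in steps of 1 log2 unit: it rises over 1 in the dim range, lies near 0.1 through the middle, and turns up at the bright end.

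Among genes above background with a mean signal of at least 500, the steadiest and the most variable were named. CG4658 had 1662 on eGFP 2.1, 1676 on 2.2, 1680 on 3.1 and 1669 on 3.2, an SD of 0.0069 on the log2 scale. Also among the 8 genes with the smallest SD were CG2656 (2392 ± 12.2), the translesion polymerase PolH (709 ± 4.25) and the replication factor Psf2 of the GINS complex (1387 ± 10.7). In these 4 genes the highest array exceeded the lowest by 1.01- to 1.02-fold.

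At the other end, Pi3K68D, a class II phosphoinositide kinase, had 605 on eGFP 2.1, 546 on 2.2, 1232 on 3.1 and 670 on 3.2, an SD of 0.53 on the log2 scale. The value of eGFP 3.1 stood apart, and the other probe set of this gene averaged 541 ± 50.7. The clock-related translation regulator tyf had 569, 1255, 804 and 717, with eGFP 2.2 high, while its other 2 probe sets averaged 568 ± 97.3 and 510 ± 64.0. The palmitoyltransferase Zdhhc8 had 680, 415, 781 and 420, and its second probe set averaged 317 ± 69.1. The dosage compensation gene msl-3 had 1235, 610, 997 and 813, while its other probe set averaged 798 ± 49.1. In these 4 genes the other probe sets had smaller SDs than the one named. Array-to-array spread was also wide for rswl (741, 746, 383 and 615), CG13074 (406, 696, 748 and 750), the calcium channel Orai (808, 727, 839 and 445) and stau (683, 1230, 732 and 1050).

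Arrays with the same first number in their title were compared with those of the other number. The pairs that share it were no more alike: across fly probe sets eGFP 3.1 and 3.2 correlated at 0.932 and eGFP 2.1 and 2.2 at 0.939, within the range of 0.932 to 0.941 over all 6 pairs. In a limma fit of the eGFP 3 arrays against the eGFP 2 arrays, 0 of 11261 probe sets (0%) passed an adjusted p of 0.05 (Benjamini-Hochberg), and 528 (4.69%) had an unadjusted p under 0.05. A log2 difference over 1 in size was found for 693 probe sets (6.15%). The 0 calls therefore do not show that the arrays were alike. Without eGFP 2.2 the fit gave 80 calls and without eGFP 3.1 it gave 2, and a replicate block on the second number gave 30. The smallest adjusted p from limma was 0.255, for Crk, an adaptor protein of receptor and adhesion signalling. Crk had 9391 and 9329 on eGFP 3.1 and 3.2, against 6346 and 5802 on eGFP 2.1 and 2.2, a log2 difference of 0.63 ± 0.091 (SE). Its groups did not overlap, as was the case for 3770 of the 11261 probe sets (33.5%), and the gene was chosen for naming after its values were seen.

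**Figure D5:**
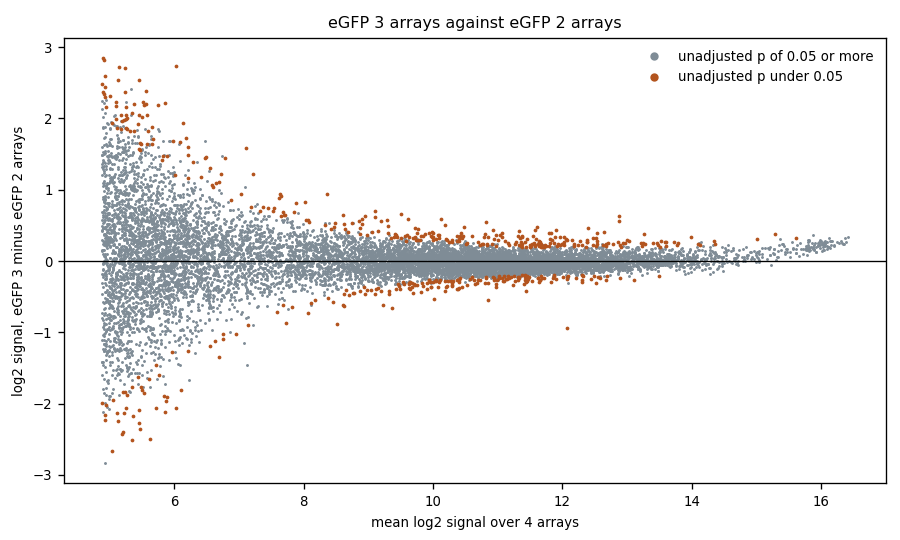
Difference in mean log2 signal, eGFP 3 arrays minus eGFP 2 arrays, against mean log2 signal, 1 point per tested probe set. The 528 coloured probe sets had an unadjusted p under 0.05 and 0 passed after adjustment, and the cloud is widest at the dim end and lies above 0 at the bright end.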

How the data were processed

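Total RNA of SL2 cells was labelled as biotin-cRNA and hybridized to Affymetrix 3′ expression arrays, per the labels' protocols, with 1 array per sample. The deposited values are linear intensities, 1 per probe set and array, made by the authors with GCOS 1.4 per the submitters' processing notes; the sources used here do not name the summary algorithm or its settings. The 2% trimmed mean of the deposited intensities over all 18952 probe sets was 1000 on each of the 4 arrays, so levels are relative to that mean, and the number of arrays limits the precision. No batch or scan date was used.

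Of the probe sets, 183 were Affymetrix controls and 18769 targeted fly transcripts. Names came from the platform annotation, updated by gene identifier through a RefSeq table of the Release 6 plus ISO1 MT assembly: 13647 fly probe sets had 1 symbol, 402 several and 4720 none, and 13544 of those with 1 symbol matched the table. Each gene was taken at its brightest probe set with 1 symbol. Of 1094 genes with several probe sets, 151 had probe sets both above and at background. The 50 gene lists named 1041 members, of which 826 were measured, and in 19 lists under 80% were measured. The members and the lists were chosen with earlier results of these data known, and lists are described by counts with no test.

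Named genes were Hml, srp and NimC1, the 25 brightest, any member of a list with up to 15 measured genes or otherwise its 4 brightest and 4 dimmest, and the 8 with the largest and the 8 with the smallest SD of log2 signal. Genes between the eGFP 3 and eGFP 2 arrays were to be named among those called; none was, and Crk was named after its values were seen. That fit used limma 3.58.1 in R 4.3.3 (lmFit, eBayes with an intensity trend) on log2 intensity, without probe sets under the 40th percentile (signal 29.4), with Benjamini-Hochberg adjustment. Tested on simulated data with 100 changes each of 1 and 2 log2 units among 11261 probe sets, it called 66% and 69% of them and 2 unchanged probe sets. The simulated noise was drawn separately for each probe set, with no shift of a whole array. These shares therefore need not hold for the real arrays. Other steps used Python 3.11.15 with pandas 2.3.3 and numpy 2.4.6. Alternatives were other background levels, other probe set rules, other normalizations and filters, a replicate block and leaving out each array.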

Additional observations from a re-analysis of the deposited data

Results flagged for a closer look

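On array eGFP 3.2 the control probe sets without a fly target had a median signal of 19.9, against 9.39 to 10.5 on the other 3 arrays, a gap of 0.897 of the whole range of the 4 arrays. This was 1 of 12 array measures looked at in which 1 array stood apart from the other 3 by Dixon's criterion at the 95% level. The background level of that array was also the highest of the 4.

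Of 233 genes named in the text, 20 had 1 array apart by the same criterion. Over all genes above background it was 380 of 6481 (5.86%), which is an unlike set, since the 233 include genes at background. The criterion picks about 5% of groups by chance. Array eGFP 2.1 was low for 6 bright genes, with gaps of 0.845 for CG5953, 0.848 for RpLP2, 0.859 for tsr, 0.943 for eEF5, 0.964 for SPARC and 0.8292 for eIF4A. For SPARC it had 47599 against 59034 to 59462 on the others. It was also low for tra2 (gap 0.84, 2424 against 2546 to 2569) and CG13074 (0.844, 406 against 696 to 750), and high for jumu (0.836, 3465 against 2784 to 2896).

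Array eGFP 3.2 was low for Acp95EF (gap 0.921, 230.3 against 297 to 303) and B52 (0.94, 19082 against 22339 to 22548), and high for ItgaPS4 (0.886, 217 against 150.2 to 158) and Antp (0.849, 42.7 against 13.8 to 18.2). Array eGFP 3.1 was high for brp (0.879, 544 against 484 to 491), Tm2 (0.853), dj (0.905), Mst87F (0.897) and RpL10Aa (0.88). Array eGFP 2.2 was high for VAChT (0.839) and low for Mtk (0.856, 662 against 843 to 873). Antp, Tm2, dj, Mst87F and VAChT were at background on all 4 arrays, so these gaps concern values at or under the background level. RpL10Aa exceeded it on eGFP 3.1 alone (76.3, against 3.69 to 12.4 on the others).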

How the results depend on the processing

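The number of fly probe sets above background, 8148, ranged from 7290 (level taken from odorant and gustatory receptors) to 8739 (above on at least 3 of 4 arrays), and from 8199 to 8511 without 1 array. It stayed at 8148 after quantile normalization, which keeps the order within an array by construction. A level from the controls named by a protein accession or as Tag gave 8443, and 1 level common to the arrays 8233; these 2 were chosen after seeing the data. The count of other lineage genes moved to 24 of 341 at the 99th percentile, from 39, and no other class of gene lists moved by more than 1.5 times. Single lists did: at that percentile 3 gustatory receptors, 4 odorant binding proteins and 1 cuticle protein gene were above, against 6, 7 and 4. Without eGFP 2.2, byn and RpL22-like joined the genes above background, without 3.1 Hsp60B did, and without 3.2 peb, Lsp2, Jon74E and RpS10a did. With the median over a gene's probe sets, brp, sls and gt were no longer above.

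The median SD of log2 signal of 0.12 became 0.20 when arrays were centred on their median, 0.46 over all fly probe sets, and 0.11 to 0.12 without 1 array. Centring on the median moved the median difference between eGFP 3 and eGFP 2 arrays to −0.11, from 0.003.

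The comparison of eGFP 3 with eGFP 2 arrays gave 0 calls in limma under 2 other normalizations, 2 other filters and no intensity trend, with 329 to 892 probe sets at an unadjusted p under 0.05. Without 1 array it gave 0 to 80 calls. The 80 came without eGFP 2.2 (78 higher, 2 lower), and 2 came without eGFP 3.1; the lone array is then assumed to vary like the other pair. With the second number of the titles as a replicate block it gave 30 calls (22 higher, 8 lower), but with 2 pairs and a correlation of deviations of 0.029 the numbers were not taken to pair the arrays. The cause of these shifts was not tested. A signal at or under the background level of its array, 49.8 to 93.3, shows only that the transcript was not detected there.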

Other observations

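Among the 4971 fly probe sets with a mean log2 signal over 10 (a signal of 1024), 2 had an SD over 0.5 on the log2 scale, and neither carries a gene symbol in the annotation. They were singled out after their values were seen. Probe set 1641367_at had 4111 on eGFP 2.1, 1942 on 2.2, 5306 on 3.1 and 1410 on 3.2, an SD of 0.90. The arrays whose titles end in 1 were both above those that end in 2. Probe set 1640412_at had 3787 and 2568 on eGFP 3.1 and 3.2, against 7160 and 4962 on eGFP 2.1 and 2.2, an SD of 0.62. In total 1114 probe sets without a single gene symbol were above background on all 4 arrays, beside 7034 with 1 symbol, and they appear in none of the lists.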
